A study of Mus musculus with 4 samples.

Results

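The panel held 43 genes of the extracellular matrix and its receptors, of 750 gene probes in all, and they were taken by name: collagens, laminins, integrin alpha and beta chains, thrombospondins, fibronectin (Fn1), tenascins (Tnc, Tnn, Tnr), osteopontin (Spp1), Comp, Ibsp, Chad and Reln. They were counted in CD45- live cells sorted from B16.OVA tumors, a melanoma line that expresses ovalbumin, grown under the skin of C57BL/6 mice. WT samples (n = 2) came from FoxP3YFP-Cre mice and KO samples (n = 2) from Prdm1fl/flFoxP3YFP-Cre mice, so both groups carried the Cre, which is driven by Foxp3, and only KO mice lost Prdm1, the gene for Blimp1, in Foxp3+ regulatory T (Treg) cells. Every mouse was immunized with NP-OVA, in CFA on the day of tumor injection (day 0) and again in IFA 7 days later, and tumors measured at most 1.5 cm3 when sorted. The cells counted here are therefore not the cells in which the gene was deleted, and the question is whether their matrix and adhesion transcripts differed with the genotype of the host's Treg cells. The labels give no age or sex, and no label says whether a sample was 1 mouse.

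Collagens are the main fibers of connective tissue. Types I, III and V form the interstitial fibrils laid down mainly by fibroblasts, types II and XI are the fibrillar collagens best known from cartilage, and type IV forms the sheet of basement membranes together with laminins. Integrins are receptors of 1 alpha and 1 beta chain that hold cells to these proteins and signal through focal adhesion kinase (Ptk2), and glycoproteins such as fibronectin, osteopontin and thrombospondin are among the ligands they bind. In a melanoma the tumor cells carry integrins of their own, while fibrillar collagen is largely made by the stroma around them, which also lies in a CD45- gate.

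Values below are scaled counts, that is barcode counts divided by 1 factor per sample from the 20 housekeeping probes. The 4 samples held 626056 to 692284 endogenous counts, of which the 43 genes took 0.445% to 0.550%. A gene was tested if its count lay above the background limit (2 SD above the mean count of 8 negative control probes) in at least 2 samples. The limits were 17.5 and 17.9 counts in WT 1 and WT 2, and 21.9 and 19.9 in KO 1 and KO 2. KO 2 stood apart from the other 3 samples over the 446 tested genes, at 6.95 on the first principal component against -3.27 to -1.33. The Prdm1 probe gave 6 to 9 counts, below each limit, and cannot check the labels in a gate without Treg cells. Of 4 measured genes of the melanocyte lineage, Pax3, Met and Kit were above the limit in each sample and Lef1 in none.

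Of the 43 genes, 17 were above background in at least 2 samples (39.5%), against 429 of the other 707 genes on the panel (60.7%), and 13 were above it in all 4. The 17 were 9 collagens, the laminin gene Lama5, the integrin genes Itga6, Itga9, Itgb3 and Itgb4, and Fn1, Spp1 and Thbs1. A further 6 were above the limit in 1 sample, in each case a WT sample, whose limits were the lower ones. These were Col27a1 (18 counts), Itga7 (20) and Reln (23) in WT 1 and Col5a2 (37), Thbs4 (22) and Tnc (23) in WT 2. The other 20 lay below the limit in each sample, at 1 to 15 counts. They included the collagen genes Col4a3, Col4a6, Col6a6 and Col24a1, the laminin genes Lama1, Lama3, Lamb3 and Lamc3, the integrin genes Itga2, Itga3, Itga8, Itgb6, Itgb7 and Itgb8, and Chad, Comp, Ibsp, Tnn and Tnr. Itgb7, the 1 leukocyte integrin among the 43 genes, was thus not detectable at this depth.

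None of the 17 tested genes passed an adjusted p of 0.05 between KO and WT samples (edgeR's quasi-likelihood test, lowest adjusted p = 0.569), and 0 of the 17 had an unadjusted p under 0.05 by edgeR, where 7.40% of all 446 tested genes did. At the adjusted threshold edgeR called 0.00% of genes on the panel as a whole. DESeq2 called 0 of the 17 as well, where it called 3 of all 446 tested genes. Of the 17, 5 had a higher and 12 a lower fitted mean in KO samples, and their median log2 fold change was -0.07 beside -0.08 over all tested genes. Both KO samples were above both WT samples for 2 of the 17 genes (Itgb3 and Col2a1; 11.2% of all tested genes), and both were below for 2 (Itgb4 and Col1a2; 31.4% of all). With TMM scaling 4 of the 12 lower genes (Col11a1, Col4a4, Col5a1 and Itga6) had fold changes above 0, the counts of genes without overlap among the 17 were 2 and 1, and those among all genes were 81 and 80 in place of 50 and 140. Scaling to the positive controls moved the median of all tested genes from -0.08 to 0.05. The 95% interval extended 0.71 log2 units to each side at the median of the 17 genes, whose median count was 80 against 352 over all tested genes, and an exact two-sided permutation test of 2 against 2 samples cannot give a p below 1 in 3.

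**Figure D1:**
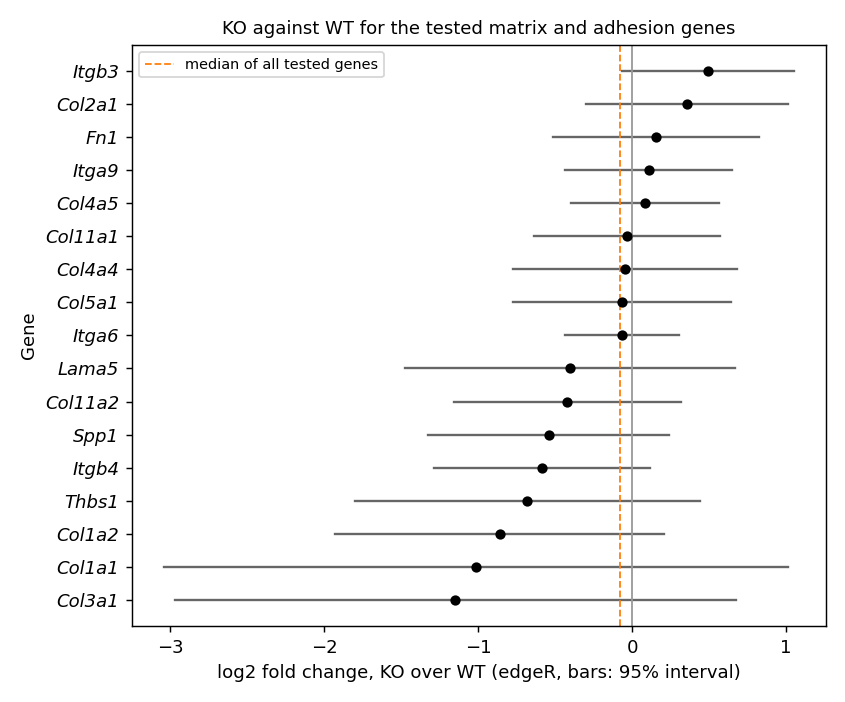
Log2 fold change of KO over WT for the 17 tested matrix and adhesion genes (points) with the 95% interval from edgeR (bars), and the median of all 446 tested genes (dashed line). Each interval includes 0, and those of Col3a1 and Col1a1 are the widest, from -2.97 to 0.67 and from -3.04 to 1.02.

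Among the 17 genes, 3 collagens of interstitial fibrils, Col3a1, Col1a1 and Col1a2, differed most between samples. Each of them also differed within each genotype. Col3a1, which encodes type III collagen, stood at 68.0 (WT 1), 162 (WT 2), 88.7 (KO 1) and 16.2 (KO 2) scaled counts. Col1a1, the alpha 1 chain of type I collagen, was at 28.3 and 112 in WT samples and 57.7 and 12.4 in KO samples. Col1a2, its partner chain, was at 34.01 and 55.1 against 33.1 and 16.2. In all 3 genes WT 2 was the highest and KO 2 the lowest sample, and KO 2 lay below the background limit. This order of samples held for 15.2% of all tested genes and for 4 of the 17, the other being Itgb4. Col5a2, a chain of type V collagen, was above the limit in WT 2 alone, with 15.1 and 38.5 in WT against 11.8 and 7.61 in KO samples. Col5a1, its partner chain, was above the limit in each sample, at 23.6 and 29.1 against 24.6 and 25.7. Its range between samples was 1.23-fold, so the wide spread did not hold for every collagen of these types.

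In the WT samples the difference was larger than counting error for Col1a1, Col3a1 and Col1a2. WT 2 held 3.96 times as much Col1a1 as WT 1 (95% exact binomial interval 2.62 to 6.16, which covers counting error only), 2.39 times as much Col3a1 (1.79 to 3.20) and 1.62 times as much Col1a2 (1.04 to 2.55). Since KO 2 was below background for all 3, its ratios are bounds against the limit, and KO 1 held at least 3.05 times as much Col1a1, 4.69 times as much Col3a1 and 1.75 times as much Col1a2. The highest sample was at least 4-fold over the lowest for 1.12% of all tested genes, also with values under the limit raised to it. Col3a1 and Col1a1 were among these, at no less than 8.57-fold and 5.94-fold, and for Col1a2 the bound was 2.91-fold. These 3 genes had 13 to 156 counts a sample.

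**Figure D2:**
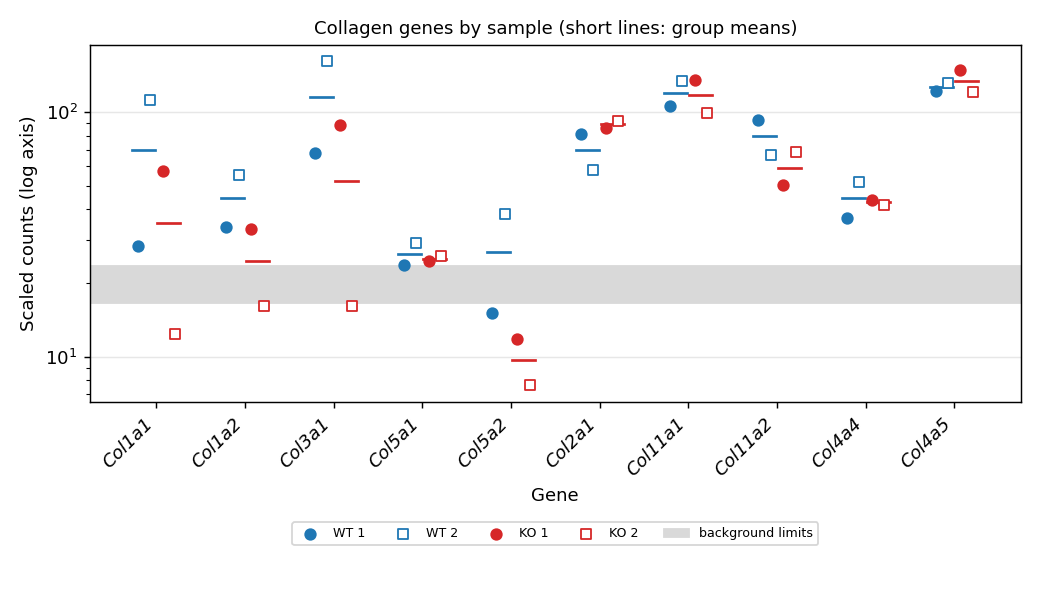
Scaled counts (log axis) of 10 collagen genes in WT 1, WT 2, KO 1 and KO 2, with group means as short lines and the range of the background limits as a grey band. Col1a1, Col1a2 and Col3a1 are highest in WT 2 and lowest, under the limit, in KO 2, while the chains of types II, IV and XI lie closer together.

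Against this spread a genotype difference was not detectable for the 3 genes. Their fitted log2 fold changes were -1.15 for Col3a1 (SE 0.75, unadjusted p = 0.175, adjusted p = 0.664, edgeR), -0.86 for Col1a2 (SE 0.44, unadjusted p = 0.0972, adjusted p = 0.582, edgeR) and -1.01 for Col1a1 (adjusted p = 0.687, edgeR). Without WT 2 that of Col1a1 was 0.29, and those of Col3a1 and Col1a2 were -0.39 and -0.47. Without KO 2 they were -0.27, -0.37 and -0.42 in the same order, without KO 1 -2.48, -2.82 and -1.45, and without WT 1 -1.70, -1.65 and -1.17. The 5 genes of types I, III and V summed to 169 and 397 scaled counts in WT against 216 and 78.0 in KO samples, a log2 ratio of group means of -0.95 that was -0.20 without WT 2 and -0.39 without KO 2. In KO 2, 4 of the 5 were below background. This grouping by collagen type was made after the values were seen.

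Markers of other stromal cells were mostly below background. Of 9 measured fibroblast or pericyte markers outside the 43 genes 1 was above background in at least 2 samples, namely Pdgfrb, a receptor of pericytes and fibroblasts. It was at 82.2 and 73.9 in WT against 65.2 and 60.0 in KO samples (log2 fold change -0.32, unadjusted p = 0.242, adjusted p = 0.675, edgeR). Both KO samples were below both WT samples, as they were for 31.4% of all tested genes. Sfrp4, a secreted Wnt inhibitor, was above background only in WT 2, at 16.1 and 34.3 against 17.1 and 11.4. Pdgfra, Fgf7, Hgf, Igf1, Pdgfd, Sfrp1 and Sfrp2 lay below the limit in each sample. The 9 markers summed to 163 to 165 scaled counts in WT and 134 to 137 in KO samples. These sums include counts below the limit, and Pdgfrb alone was tested. Of 5 endothelial markers only Angpt2 was above background, at 360 and 403 against 409 and 248, while Kdr, Flt1, Dll4 and Pdgfb were below it. The 5 summed to 384 and 428 against 435 and 265, which was mostly Angpt2. With the other 4 below background, this sum is not taken as a measure of endothelial cells. Of 17 leukocyte markers, which the CD45- gate should leave out, Pik3cd and Plcg2 were above background in at least 2 samples. The list summed to 244 and 265 against 221 and 179, with the markers below background included. The part of these cells in the collagen counts was not tested, and in a bulk sample fewer stromal cells and less collagen RNA per cell cannot be told apart.

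Promoter sequence from RefSeq was found for 28 of the 43 genes and 10 of the 17 tested. Those of 2 collagens that varied, Col1a2 and Col3a1, are shown beside that of Col5a1, and none was found for Col1a1. Col5a1 had a 1.23-fold range between samples, at 23 to 28 counts, close to the background limits, where a difference is hard to see. Each window runs from 250 bases before to 50 after the transcript's start on the plus strand of GRCm38.p6 (Col1a2 chr6:4505368-4505667, Col3a1 chr1:45311288-45311587, Col5a1 chr2:27886175-27886474). Capitals mark the letters of 3 promoter motifs on either strand: the TATA box TATAAA, the CCAAT box and the GC box GGGCGG. Matches are of letters alone, at any position in the window, and whether they act as promoter elements was not tested.
Col1a2: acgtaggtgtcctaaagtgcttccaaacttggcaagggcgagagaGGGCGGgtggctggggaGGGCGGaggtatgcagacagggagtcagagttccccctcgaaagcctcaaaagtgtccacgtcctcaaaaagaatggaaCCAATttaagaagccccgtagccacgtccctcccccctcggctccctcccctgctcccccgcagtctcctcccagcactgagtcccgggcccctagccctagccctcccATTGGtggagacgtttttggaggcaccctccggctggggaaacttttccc
Col3a1: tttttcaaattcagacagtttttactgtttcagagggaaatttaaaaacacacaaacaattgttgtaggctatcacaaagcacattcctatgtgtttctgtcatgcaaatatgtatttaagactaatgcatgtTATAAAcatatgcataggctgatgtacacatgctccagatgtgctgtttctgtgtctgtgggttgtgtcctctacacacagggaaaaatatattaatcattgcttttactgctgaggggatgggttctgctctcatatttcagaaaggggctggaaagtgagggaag
Col5a1: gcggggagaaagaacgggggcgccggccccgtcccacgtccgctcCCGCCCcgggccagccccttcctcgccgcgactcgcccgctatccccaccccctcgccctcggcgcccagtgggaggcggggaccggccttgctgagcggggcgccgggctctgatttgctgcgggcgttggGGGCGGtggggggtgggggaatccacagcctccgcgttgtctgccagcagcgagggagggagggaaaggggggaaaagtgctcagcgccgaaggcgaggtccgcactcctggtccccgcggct
The Col1a2 window had 2 CCAAT boxes, 109 bases before the start and at the start itself, and 2 GC boxes, 205 and 188 bases before it. Col3a1 had 1 match to the letters of the TATA box, 117 bases before the start, and neither other motif. Col5a1 had 2 GC boxes only, 205 and 73 bases before the start. Of all 32851 such windows 37.4% held a CCAAT box, 35.7% a GC box and 13.6% a TATA box, and matches of different motifs did not overlap in these windows. The varying genes Col1a2 and Col3a1 shared none of the 3 motifs, and their windows were 61.0% and 37.7% G or C.

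The fibrillar collagens of types II and XI varied less between samples than Col1a1, Col3a1 and Col1a2. Col2a1 was at 81.2 and 58.3 in WT against 86.6 and 92.3 in KO samples, so that both KO samples were above both WT samples (log2 fold change 0.36, adjusted p = 0.675, edgeR). Col11a1 was at 106 and 134 against 136 and 99.0. Col11a2 was at 92.6 and 66.6 against 50.3 and 68.5. With the untested Col24a1 and Col27a1 these genes summed to 299 and 283 in WT against 290 and 284 in KO samples. That sum had a 1.06-fold range, where the 5 genes of types I, III and V had one of 5.09-fold. The 5.09-fold range uses values of KO 2 that lay below background. Single genes had wider ranges than the 1.06-fold sum, of 1.84-fold (Col11a2), 1.58-fold (Col2a1) and 1.37-fold (Col11a1). The median range over all tested genes was 1.29-fold. Col2a1 and Col11a2 had log2 fold changes of opposite sign (0.36 and -0.42). All 10 fibrillar genes together stood at 469 and 680 in WT against 506 and 362 in KO samples, a log2 ratio of -0.41 that was -0.11 without WT 2 and -0.18 without KO 2.

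Of the type IV collagen chains, Col4a5 and Col4a4 were tested, and they varied less between samples than Col1a1, Col3a1 and Col1a2. Their ranges were 1.23-fold and 1.41-fold, beside a median of 1.29-fold over all tested genes. Col4a5, a chain of basement membranes, was at 122 and 132 in WT against 149 and 121 in KO samples (log2 fold change 0.08, SE 0.20, unadjusted p = 0.686, adjusted p = 0.908, edgeR). Col4a4 was at 36.8 and 52.0 against 43.8 and 41.9 (log2 fold change -0.05, SE 0.30, unadjusted p = 0.876, adjusted p = 0.950, edgeR). Lama5, the laminin alpha 5 chain of the same membranes, varied more, at 82.2 and 49.9 in WT against 68.4 and 32.4 in KO samples. Here sample 1 of each group was the higher. In the WT samples this order was unlike that of Col1a1, Col1a2 and Col3a1, while KO 2 was the lowest sample for Lama5 as it was for them. Its log2 fold change was -0.40 (SE 0.44, unadjusted p = 0.393, adjusted p = 0.754, edgeR), 0.0040 without WT 1 and 0.045 without KO 2.

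The integrins were nearly level in sum, and the beta chains had fold changes of opposite sign that did not pass the test. Itga6, which pairs with Itgb1 or Itgb4 as a laminin receptor, was at 844 and 801 in WT against 891 and 681 in KO samples. Its log2 fold change was -0.07 (SE 0.15, unadjusted p = 0.676, adjusted p = 0.908, edgeR) and 0.071 with positive control scaling, and the 95% interval from -0.44 to 0.30 was the narrowest of the 17. Itga9, whose product with Itgb1 binds tenascin and osteopontin, was at 171 and 176 against 149 and 224 (log2 fold change 0.11, SE 0.22, unadjusted p = 0.647, adjusted p = 0.890, edgeR). Its 2 WT samples were close together while the KO samples lay on either side of them, and without KO 2 the value was -0.22.

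Itgb3, which pairs with Itgav or Itga2b and binds fibronectin, osteopontin and other ligands, had the lowest p of the 17 genes. It was at 139 and 107 in WT against 148 and 199 in KO samples, with both KO samples above both WT samples but KO 1 close to WT 1. The log2 fold change was 0.49 (SE 0.23, unadjusted p = 0.0736, adjusted p = 0.569, edgeR), and it was 0.26 without KO 2 and 0.32 without WT 2. Its unadjusted p fell under 0.05 with 3 of the 4 other scalings, and its adjusted p was 0.142 to 0.947 over the other scalings, the fits without 1 sample, DESeq2, limma and the replicate block. Itgb4, the partner of Itga6 in hemidesmosomes, was at 42.5 and 42.7 in WT against 32.1 and 24.7 in KO samples. Both KO samples were below both WT samples, with a log2 fold change of -0.59 (SE 0.29, unadjusted p = 0.0872, adjusted p = 0.569, edgeR) at 26 to 45 counts a sample. The 4 tested integrins summed to 1196 and 1127 in WT against 1219 and 1128 in KO samples, a log2 ratio of 0.01 (0.15 with positive control scaling) in a sum that was mostly Itga6.

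**Figure D3:**
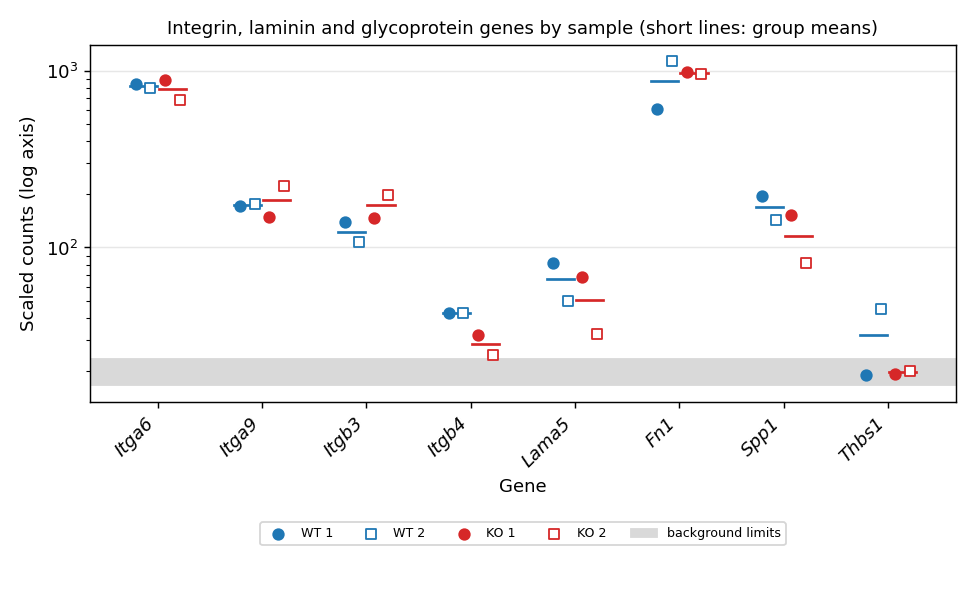
Scaled counts (log axis) of the tested integrin, laminin and glycoprotein genes in each sample, with group means as short lines and the background limits as a grey band. Both KO samples lie above both WT samples for Itgb3 and below them for Itgb4, and Fn1 is lowest in WT 1.

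The secreted glycoproteins each had 1 sample apart from the rest. Fn1, the gene for fibronectin, was at 610 and 1139 in WT against 985 and 962 in KO samples, and the KO samples lay between the WT samples. WT 2 held 1.87 times as much as WT 1 (95% exact binomial interval 1.69 to 2.06). The log2 fold change of 0.16 (adjusted p = 0.855, edgeR) was -0.23 without WT 1 and 0.67 without WT 2. Spp1, which encodes osteopontin, a secreted integrin ligand, was at 195 and 144 in WT against 152 and 81.9 in KO samples, with KO 1 between the WT samples. Its log2 fold change was -0.54 (SE 0.32, unadjusted p = 0.142, adjusted p = 0.649, edgeR) and -0.16 without KO 2. Thbs1, which encodes thrombospondin 1, an inhibitor of vessel growth, was at 18.9 and 44.7 against 19.2 and 19.99, so that WT 2 was the sample apart, and KO 1 was below background. Its log2 fold change was -0.68 (SE 0.46, unadjusted p = 0.188, adjusted p = 0.664, edgeR) and 0.05 without WT 2.

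Differences within the groups were larger for these genes than for the panel as a whole. The median absolute log2 ratio of WT 2 to WT 1 was 0.48 over the 17 genes and 0.11 over all 446, and that of KO 1 to KO 2 was 0.43 and 0.21. The highest sample was at least 2-fold over the lowest for 6 of the 17 (Col3a1, Col1a1, Col1a2, Lama5, Spp1 and Thbs1), where 8.97% of all tested genes reached this (7.85%, and the same count of the 17, with values under the limit raised to it). The 17 have lower counts than the panel, and these shares were not tested.

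**Figure D4:**
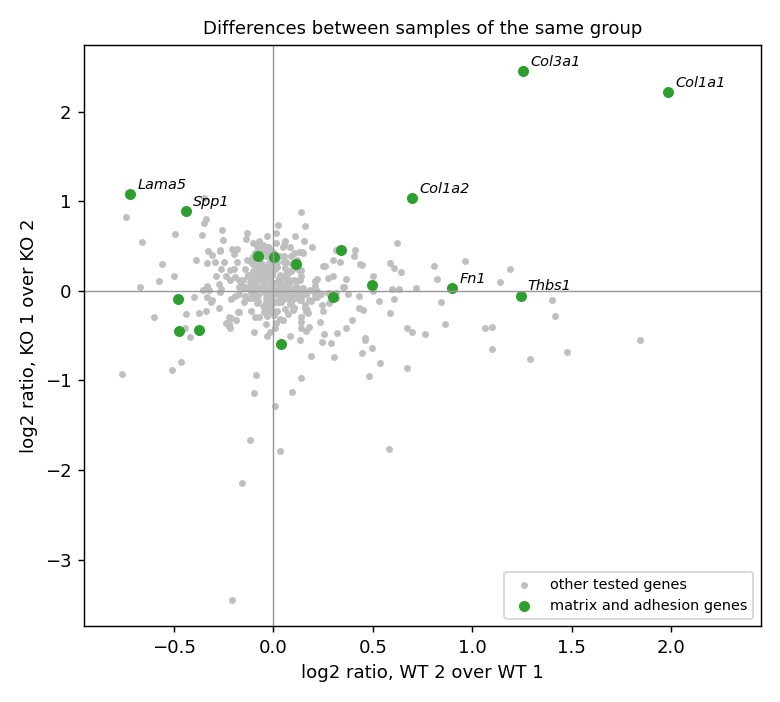
Log2 ratio of WT 2 to WT 1 against that of KO 1 to KO 2 for the 17 tested matrix and adhesion genes (green) and the other 429 tested genes (grey). Col1a1, Col3a1 and Col1a2 lie at the upper right, high in WT 2 and low in KO 2, and Lama5 and Spp1 at the upper left, high in WT 1 and low in KO 2. Ratios are plotted as measured, also where a value lay below background, as KO 2 did for Col1a1, Col3a1 and Col1a2.

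Genes around the matrix gave no call. Of 5 measured matrix proteases and activators only Plau, the urokinase gene, was tested, at 16.1 and 44.7 in WT against 33.1 and 53.3 in KO samples (log2 fold change 0.53, adjusted p = 0.753, edgeR). Plat, the tissue plasminogen activator gene, was above background in KO 2 alone, at 28.6 against 7.56 to 12.8 in the other samples, and Mmp3, Mmp7 and Mmp9 were below it in each. Of 37 measured genes of adhesion signaling 32 were tested, of which 12 had a higher and 20 a lower mean in KO samples (median -0.07 on the log2 scale). At an unadjusted p under 0.05 there was 1 in each direction (2.91% and 4.48% of all tested genes). Shc3 was at 18.9 and 12.5 in WT against 25.7 and 31.4 in KO samples (log2 fold change 0.85, unadjusted p = 0.0441, adjusted p = 0.569, edgeR), with WT 2 below background. Pik3r3 was at 1915 and 1782 against 1267 and 966 (log2 fold change -0.73, unadjusted p = 0.00305, adjusted p = 0.415, edgeR). Ptk2, which encodes focal adhesion kinase, was at 830 and 816 in WT against 893 and 986 in KO samples (log2 fold change 0.19, unadjusted p = 0.131, adjusted p = 0.649, edgeR). Both KO samples were above both WT samples for 8 of the 32 genes, Ptk2 among them (11.2% of all tested genes). Both were below for 12 (31.4% of all). Flna, an actin crosslinker that binds integrin tails, was at 503 and 499 against 598 and 512, and Rhoa, a GTPase of the cytoskeleton, at 3761 and 3965 against 3864 and 3804.

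The TGF-beta pathway, which induces collagen genes in fibroblasts, was measured by 21 genes, of which 10 were tested, and 3 of these had a higher and 7 a lower mean in KO samples (median -0.08 on the log2 scale). Of the 10, 1 had an unadjusted p under 0.05 by edgeR, where 7.40% of all 446 tested genes did (4.48% lower in KO). This was Smad3, a transducer of the pathway, at 517 and 525 in WT against 443 and 409 in KO samples (log2 fold change -0.29, unadjusted p = 0.0292, adjusted p = 0.569, edgeR). The ligand gene Tgfb1 was at 199 and 200 against 191 and 229, and the receptor gene Tgfbr2 at 771 and 958 against 860 and 873. Neither differed between the groups beyond the spread of the samples.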

How the data were processed

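Total RNA (100 ng per sample) from sorted cells went onto the nCounter Mouse PanCancer Pathways panel. The values used here are the raw counts of each probe's barcode, as deposited. The deposited table of scaled signal holds those counts times 1 factor per sample (0.877 to 0.986) with a floor of 17, and served as an alternative. A deposited percent of samples above a threshold, with steps that fit 6 samples, was not used. Groups were taken from sample titles.

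Scaling used the geometric mean of 20 housekeeping probes (factors 0.935 to 1.06) and the test was edgeR 4.0.16 (quasi-likelihood, genotype only, 2 residual degrees of freedom, two-sided) over 446 probes, with Benjamini-Hochberg adjustment, in R 4.3.3. Since no label names separate animals, p-values measure the spread between these samples. No pair of samples agreed within counting noise (chi-square per degree of freedom at least 12.8). Full statistics are given for the 2 tested genes of lowest p in each role and every tested gene is named with its values. Of the genes below background, 1 is not reported here by name. The genes, lists and tests were chosen with earlier results of these data known. Alternatives were 4 scalings, 2 filters, DESeq2 1.42.0, limma 3.58.1 on the scaled signal, an unequal-variance test, background subtraction, other limits, a replicate block and leaving out each sample. All 43 genes matched the RefSeq table of GRCm38.p6 by accession and symbol.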

Additional observations from a re-analysis of the deposited data

How the results depend on the processing

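No gene of the 17 passed the adjusted threshold under any alternative, each of which tested at most 43 of these genes. Of all 446 tested genes, 3 passed it with DESeq2 and 1 with the replicate block. The count of genes at an unadjusted p under 0.05, 0 as reported, was 1 (Itgb3) with TMM, with DESeq2 size factors and with positive control scaling (32, 32 and 28 of all 446), 1 (Itgb4) with the deposited scaled signal (34 of all), 1 (Spp1) with the replicate block (48 of all), 3 without a filter (Col5a2, Itgb3 and Thbs4, with 52 of all 750) and 0 to 6 without 1 sample, the 6 without KO 1 (Col1a2, Col3a1, Itga6, Itga9, Itgb3 and Spp1, with 105 of all 446, and 20 of all past the adjusted threshold). Without WT 1 it was Thbs1 alone (29 of all) and without WT 2 Fn1 alone (12 of all). Same-numbered samples deviated together at a correlation of 0.04, so the replicate block is not taken to pair them. Without a filter, a setting added after the data were seen, 12 of 43 genes had groups that did not overlap in place of 4, beside 298 of all 750 probes. The log2 ratio of summed integrin counts was 0.095 with TMM, 0.090 with DESeq2 size factors and 0.15 with positive controls in place of 0.01.

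Of 187 values of single genes under alternatives 24 changed sign and the others did not. With TMM, DESeq2 size factors and positive controls Col11a1 was at 0.045, 0.042 and 0.11 (log2), Col4a4 at 0.033, 0.029 and 0.089, Col5a1 at 0.018, 0.013 and 0.067 and Itga6 at 0.010, 0.0070 and 0.071. Without 1 sample the log2 fold change ranged from -0.27 to 0.18 for Col11a1, -2.48 to 0.29 for Col1a1, -0.28 to 0.22 for Col4a4, -0.070 to 0.23 for Col4a5, -0.21 to 0.091 for Col5a1, -0.23 to 0.67 for Fn1, -0.27 to 0.11 for Itga6, -0.22 to 0.37 for Itga9, -1.03 to 0.045 for Lama5 and -1.18 to 0.055 for Thbs1. The cause was not tested. Of the 17 genes, those with a sample below background were Col1a1, Col1a2, Col3a1 and Thbs1.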
